A study of Mus musculus with 4 samples.

Results

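The study labelled 230 brain transcripts as having a missing or milder response to pentylenetetrazole (PTZ) in tau-/- than in tau+/+ mice. Of these, 78 that were higher in PTZ-treated than in sham-treated tau+/+ brain by less than 2-fold are described here. The 78 genes were chosen by their FPKM ratio of tau+/+ PTZ to tau+/+ sham, which had to be above 1 and under 2, and 21 genes that belong to other named groups (immediate early genes and choroid plexus markers, for example) were taken out by name, 12 of which had such a ratio. FPKM is a count of sequenced fragments scaled to the length of the transcript and to the size of the library. The rest of the 230 were 85 genes that were higher by at least 2-fold and 55 genes that were lower with PTZ. The table lists only genes that the study had already labelled as lacking a response in tau-/- brain, after requiring a change of more than 1.5-fold in tau+/+ brain, so the lower end of the range comes from that selection.

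Each of the 4 groups was sequenced as 1 library of brain RNA: tau+/+ sham, tau+/+ PTZ, tau-/- sham and tau-/- PTZ. The mice were C57Bl/6 and 6 weeks old. In tau-/- mice a GFP coding sequence inserted in the first exon of the tau gene, Mapt, removes tau in every cell type, and the level of Mapt itself was not analysed here. PTZ, a blocker of GABA-A receptors that provokes seizures, was injected at 50 mg/kg 1 h before the RNA was taken. Sham mice received the vehicle. PTZ mice with a similar seizure score were chosen for sequencing, and the number of mice per library was not given in the sources used here. The labels give brain as the source and also describe primary neurons. None of the 10 genes on the list of neuron markers is in the table, so the tissue could not be checked against them, whereas choroid plexus, meninges and vessel genes were present. With 1 library a group there is no replicate check, no test and no error on any value below, and FPKM values do not show the depth of a library.

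Strong firing of neurons switches genes on in waves. A small set of immediate early genes, which need no new protein, is the best known, and behind it stands a much broader set of transcripts that move by modest amounts. Such transcripts encode, among others, kinases that retune splicing, chaperones, feedback inhibitors of signalling and survival factors. In a whole brain, transcripts of glia, vessels, meninges and choroid plexus (the epithelium in the ventricles that secretes cerebrospinal fluid) are measured together with those of neurons.

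Many activity-dependent genes are switched on through the cAMP response element (CRE), bound by the transcription factor CREB, and this element was looked for in promoter sequence. RefSeq promoters, 250 bases before to 50 after a start site on GRCm38.p6, were found for 58 of the 78 genes, in 84 windows. The full CRE, TGACGTCA, stood in 3.57% of these windows, in 10% of the 90 windows of the genes that were higher by at least 2-fold and in 1.79% of all 32851 windows. It was found at 3 members, at 18 bases before the start of Ccnl1, 65 before that of Clk4 and 175 before that of Rcan1. These 3 windows are shown because they are the members with the full element, which is in capitals.
Ccnl1 (chr3:65958200-65958499, minus strand): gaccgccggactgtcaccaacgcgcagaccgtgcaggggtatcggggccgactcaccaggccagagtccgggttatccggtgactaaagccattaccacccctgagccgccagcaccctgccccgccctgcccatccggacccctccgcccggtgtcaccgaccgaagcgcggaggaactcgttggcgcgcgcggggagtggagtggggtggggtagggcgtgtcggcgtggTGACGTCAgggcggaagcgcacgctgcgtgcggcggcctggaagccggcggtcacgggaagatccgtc
Clk4 (chr11:51262864-51263163, plus strand): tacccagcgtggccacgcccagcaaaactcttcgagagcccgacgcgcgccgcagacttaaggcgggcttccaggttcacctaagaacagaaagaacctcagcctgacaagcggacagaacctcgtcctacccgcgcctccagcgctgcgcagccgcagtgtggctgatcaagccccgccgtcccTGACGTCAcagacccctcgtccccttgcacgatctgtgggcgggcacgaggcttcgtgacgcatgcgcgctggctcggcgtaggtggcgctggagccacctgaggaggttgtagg
Rcan1 (chr16:92400029-92400328, minus strand): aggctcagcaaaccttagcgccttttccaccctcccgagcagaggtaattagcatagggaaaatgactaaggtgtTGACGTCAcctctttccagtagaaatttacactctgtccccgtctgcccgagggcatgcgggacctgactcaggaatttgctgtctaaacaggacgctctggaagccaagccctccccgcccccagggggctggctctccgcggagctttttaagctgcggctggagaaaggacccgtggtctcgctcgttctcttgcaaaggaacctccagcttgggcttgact
Ccnl1 and Clk4 encode partners in one process, the control of splicing. Rcan1 encodes an inhibitor of calcineurin, the calcium-activated phosphatase.

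The shorter core of the element, TGACG, which every full CRE also holds, was in 32.1% of the members' windows against 20.8% of all windows and 55.6% of those of the genes that were higher by at least 2-fold. AP-1 sites (TGANTCA) were in 5.95% of the members' windows and 7.81% of all. TATA boxes (TATAAA) were in 8.33% and 13.6%, and E-boxes (CACGTG) in 5.95% and 7.15%. The EGR site (GCGTGGGCG) was in 1.19% against 0.612%, in the window of Ifrd1. The CArG box, the binding sequence of serum response factor, was in 1.19% against 1.63%, in the window of Ston1, and no window of a member held a heat shock element, which 0.603% of all windows did. The median GC content was 58.8% in the members' windows and 52.7% in all, so the motifs were searched for in sequence of unlike composition. Both strands were searched, and a match is a description of the letters only. Genes without an entry included Hes1, Rcsd1, BC067068, Slc16a6, Id1, Lum, P2ry6, 9030025P20Rik, Sema3b, Sostdc1, Zfp36l2, Kdm6b, Xylb, Rnft1, Bhlhe40, Lactb2, Csrp2, A2m and Clk1.

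**Figure D1:**
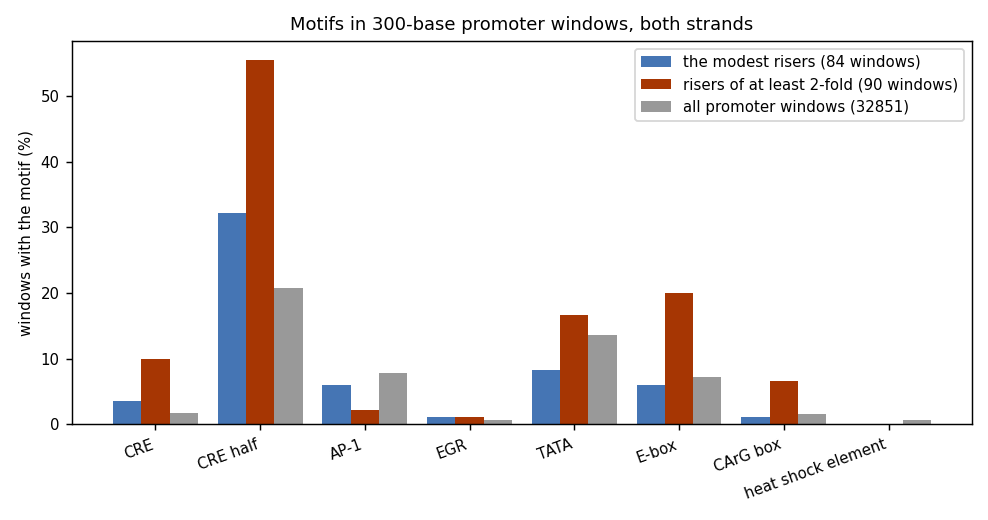
Share of promoter windows, in percent on the vertical axis, that held each of 8 motifs on either strand, for the 84 windows of the modest risers, the 90 windows of the genes higher by at least 2-fold and all 32851 windows. For the short form of the CRE, TGACG, the bars read 32.1%, 55.6% and 20.8%, with the modest risers between the other two sets.

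The genes lie on 18 chromosomes, with 10 on chromosome 11, the most on any one. GENCODE M21 (GRCm38) gave a position for 77 of the 78, 75 by symbol and 2 by an older symbol (1700009P17Rik is Cfap126 there and Hnrpdl is Hnrnpdl), whereas BC067068 was not placed. 76 were protein-coding, and 5430416N02Rik was a long intergenic noncoding RNA on chromosome 5. Their genes spanned a median of 12.1 kb, against 10.3 kb over all listed genes and 8.21 kb for the genes that were higher by at least 2-fold. Under 10 kb were 33 of the 77, 110 of 225 listed genes with a position and 46 of 82 that were higher by at least 2-fold. Midn and Cirbp lie 7.62 kb apart on chromosome 10, and Cish and Hemk1 lie 24.3 kb apart on chromosome 9. 7 members share exon sequence with another gene on the same strand, such as Rdh5, which shares 720 bases with Bloc1s1. 23 share it with a gene on the opposite strand, such as Eps8l2 with 1729 bases and Slc16a6 with 1100. Whether the libraries kept the strand is not given in the sources used here, so the values of these genes may include reads of the partner.

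By the choice of the genes, their ratio of tau+/+ PTZ to tau+/+ sham was confined to a narrow band. The median log2 ratio was 0.71, against 1.71 in the genes that were higher by at least 2-fold, and all 78 were past 1.5-fold upward, as were 76.1% of all 230 genes. At the upper edge stood Wfikkn2, at 1.99-fold, and 5430416N02Rik, at 1.96-fold, and the first genes outside were Bdnf at 2.013-fold and Tekt1 at 2.02-fold. At the lower edge stood Col4a2, at 1.502-fold, and Clk1, at 1.51-fold. Below 1, the nearest gene outside was Rorb at 0.664-fold.

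In absolute level these transcripts ran from 0.743 FPKM (Wfikkn2) to 55.1 FPKM (H3f3b) in tau+/+ sham. Their median was 4.80 FPKM in tau+/+ sham, 7.89 in tau+/+ PTZ, 5.78 in tau-/- sham and 4.27 in tau-/- PTZ. The genes that were higher by at least 2-fold had medians of 3.37, 14.2, 4.09 and 4.88 FPKM in the same order. In tau+/+ brain the modest risers had the higher median before PTZ and the lower one after it. The ratio of these same tau+/+ libraries divided the sets, so nothing is read from this beyond the values. The highest level in 3 libraries was that of H3f3b, which encodes the replacement histone H3.3, and in tau-/- sham it was that of the chaperone gene Dnajb5. At the low end, 5 members were under 1 FPKM in tau+/+ sham and 10 were in tau-/- PTZ.

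**Figure D2:**
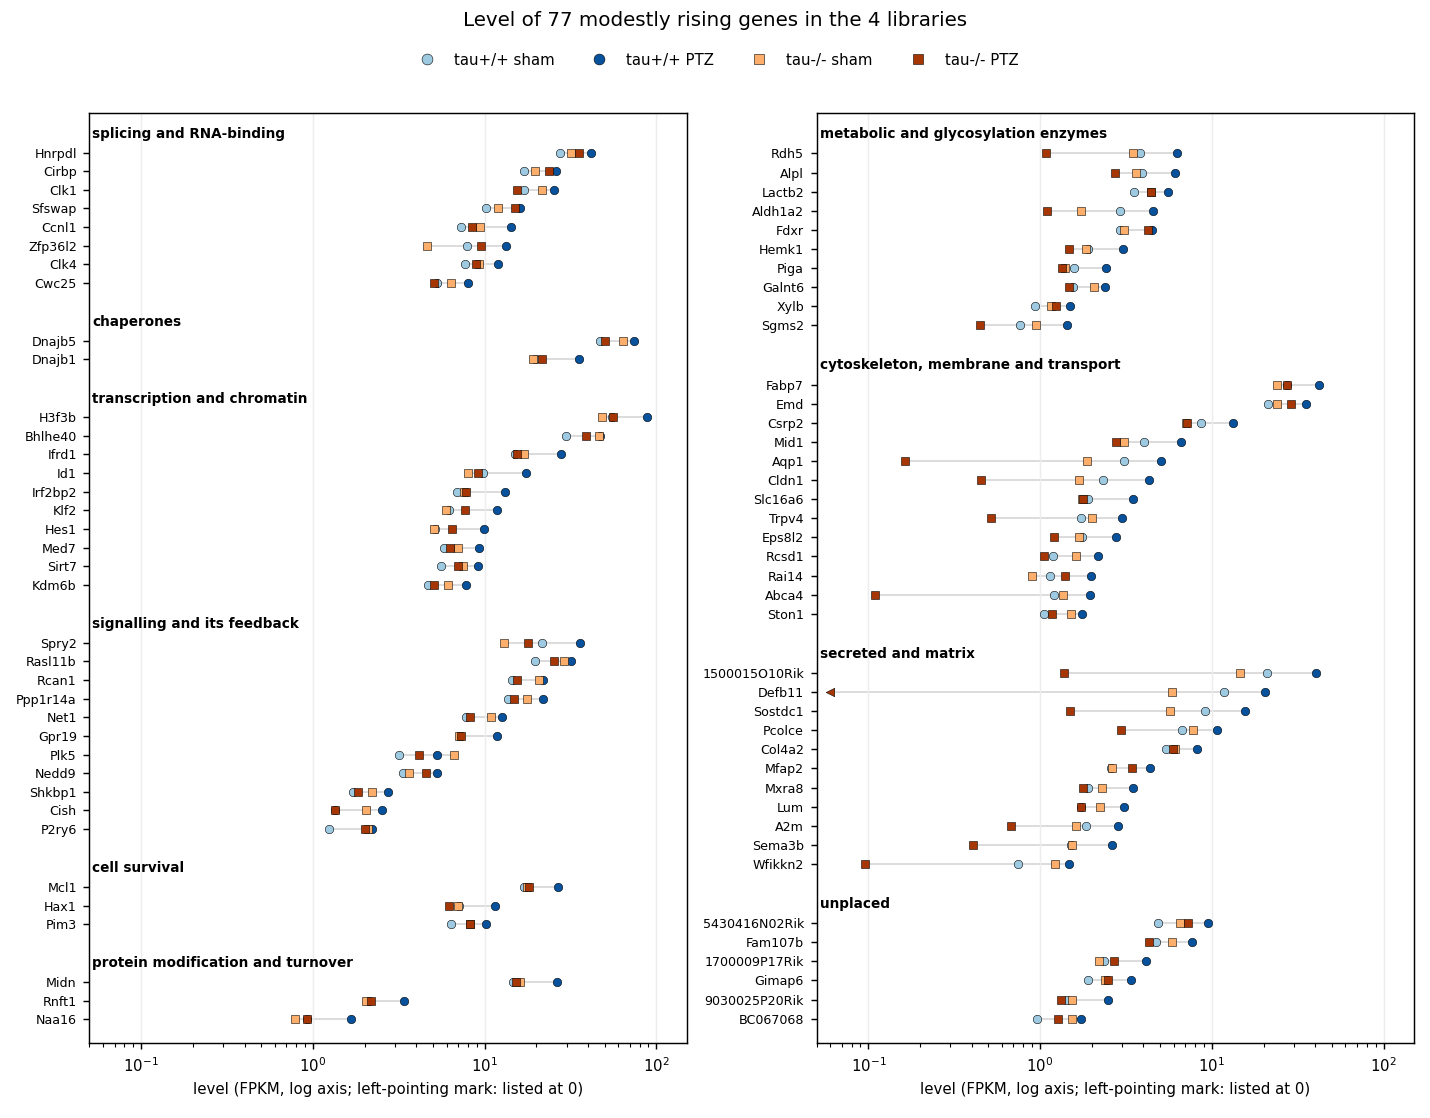
Level of 77 of the 78 genes in the 4 libraries, in FPKM on a log axis, grouped by function, with circles for tau+/+, squares for tau-/- and dark marks for PTZ (1 library each; Mid1, on a pair of lists, is drawn once). The dark circle, tau+/+ PTZ, is the rightmost mark for all genes drawn but Plk5, and the dark square, tau-/- PTZ, lies far to the left for a subset of the membrane and secreted genes.

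In tau-/- brain the same genes did not share a direction. Their median log2 ratio of tau-/- PTZ to tau-/- sham was -0.16, against -0.10 over all 230 genes and 0.05 in the genes that were higher by at least 2-fold. 2 of the 78 were higher by over 1.5-fold, while 8.7% of all listed genes were. 17 were lower by over 1.5-fold, or 21.8%, against 16.5% of all listed genes, and the other 59 lay within 1.5-fold either way. The label of missing or milder response that brought the genes into the table used this ratio as well, so these counts describe the selection and were not set against it. One gene, Zfp36l2, had a ratio in tau-/- brain at least as large as in tau+/+ brain.

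After PTZ all 78 were lower in tau-/- than in tau+/+ brain, with a median log2 ratio of -0.68, and 49 of them (62.8%) were lower by over 1.5-fold, as were 60.4% of all listed genes. None was higher by over 1.5-fold, where 6.09% of all listed genes were. The tau+/+ PTZ library also chose the members, so nothing is read from this beyond the values. 77 of the 78 had their highest level in that library. The exception was Plk5, a member of the polo-like kinase family, at 3.18 FPKM in tau+/+ sham, 5.31 in tau+/+ PTZ, 6.62 in tau-/- sham and 4.14 in tau-/- PTZ. The lowest level of a gene was in tau+/+ sham for 36, in tau-/- sham for 15 and in tau-/- PTZ for 27. By the choice of the genes it could not be in tau+/+ PTZ, and the same split over all listed genes was not computed.

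Before PTZ, 49 of the 78 were higher in tau-/- than in tau+/+ sham brain, as were 135 of all 230 listed genes. So were 65 of the 85 genes that were higher with PTZ in tau+/+ brain by at least 2-fold. The members' median log2 ratio was 0.17, against 0.11 over all 230 genes. 6 members were higher by over 1.5-fold and 6 were lower, 7.69% each, against 13.9% and 10% of all listed genes. The 6 that were higher were Plk5, P2ry6, Wfikkn2, BC067068, Bhlhe40 and Cish, and the 6 that were lower were Defb11, Zfp36l2, Aldh1a2, Spry2, Aqp1 and Sostdc1. This ratio and the ratio that chose the genes share the tau+/+ sham library. Set against tau+/+ sham instead of tau-/- sham, tau-/- PTZ was higher by over 1.5-fold for 1 member, P2ry6, and lower for 14, where 14.8% and 13.9% of all listed genes were.

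**Figure D3:**
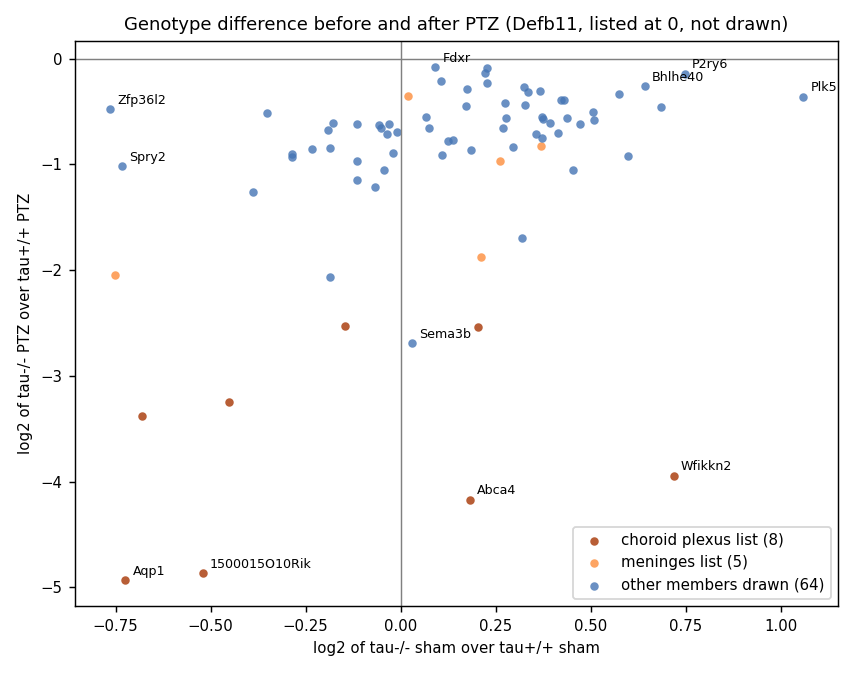
Each point is a member, with the log2 ratio of tau-/- sham to tau+/+ sham on the horizontal axis and that of tau-/- PTZ to tau+/+ PTZ on the vertical axis (1 library each; Defb11, listed at 0 in tau-/- PTZ, is not drawn). All points lie under the horizontal zero line, 49 of 78 genes lie to the right of the vertical one, and the choroid plexus genes reach from -2.53 to -4.93 on the vertical axis.

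Splicing and RNA-binding was the class of 8 members, with 14 genes on its list and 10 in the table. Clk1 and Clk4 are kinases that phosphorylate serine/arginine-rich splicing factors, and Ccnl1 encodes cyclin L1, which works with a cyclin-dependent kinase in the same nuclear speckles. Ccnl1 stood at 7.31 FPKM in tau+/+ sham, 14.3 in tau+/+ PTZ, 9.45 in tau-/- sham and 8.47 in tau-/- PTZ. Clk1 stood at 16.9, 25.4, 21.6 and 15.5 FPKM in the same order, and Clk4 at 7.67, 11.96, 9.28 and 8.92. All 3 were higher in tau-/- than in tau+/+ sham and lower after PTZ than before it in tau-/- brain, with log2 ratios of PTZ to sham there of -0.16, -0.48 and -0.06.

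Hnrpdl, an RNA-binding relative of hnRNP D, was the most abundant of the class, at 27.4, 41.5, 32.0 and 35.4 FPKM. It belongs to a family with close relatives, and how reads shared between them were divided is not known. Cirbp, the cold-inducible RNA-binding protein, and Sfswap, a regulator of splicing, kept part of the increase in tau-/- brain. Cirbp stood at 16.9, 26.1, 19.7 and 23.8 FPKM, and Sfswap at 10.2, 16.0, 11.9985 and 15.1. Their log2 ratios of PTZ to sham were 0.63 and 0.64 in tau+/+ brain and 0.27 and 0.33 in tau-/- brain, and after PTZ the genotypes differed by log2 ratios of only -0.13 and -0.09. Cwc25, a factor of the spliceosome, stood at 5.30, 8.03, 6.39 and 5.10 FPKM.

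Zfp36l2, which binds AU-rich elements and speeds the decay of mRNAs, was the member with the largest increase in tau-/- brain. It stood at 7.90 FPKM in tau+/+ sham, 13.3 in tau+/+ PTZ, 4.65 in tau-/- sham and 9.57 in tau-/- PTZ. Its log2 ratio was 0.75 in tau+/+ and 1.04 in tau-/- brain. The tau-/- sham level was the lowest of the 4, and the tau-/- PTZ level exceeded the tau+/+ sham level by a log2 ratio of 0.28. Over the 8 genes the median log2 ratio in tau-/- brain was 0.04, with 4 higher and 4 lower.

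Both chaperone genes encode J-domain co-chaperones of the Hsp70 system. Dnajb1 stood at 19.6 FPKM in tau+/+ sham, 35.5 in tau+/+ PTZ, 19.2 in tau-/- sham and 21.7 in tau-/- PTZ, so 3 of its levels were close and tau+/+ PTZ stood apart. Dnajb5 stood at 47.2, 74.2, 63.9 and 50.3 FPKM, with the tau-/- sham level between those of the tau+/+ libraries. The other 6 genes on the chaperone list, the inducible Hsp70 genes among them, are not in the table.

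All 10 genes of transcription and chromatin lay within 1.5-fold of sham in tau-/- brain, with log2 ratios from -0.27 to 0.36 and a median of -0.04. So did 59 of the 78 members and 172 of all 230 listed genes. H3f3b stood at 55.1 FPKM in tau+/+ sham, 88.5 in tau+/+ PTZ, 48.3 in tau-/- sham and 55.6 in tau-/- PTZ. Near-identical copies of H3.3 coding sequence exist elsewhere in the genome, and how shared reads were assigned is not known. Bhlhe40, a repressor that feeds back on the circadian clock, stood at 29.7, 47.0, 46.4 and 39.2 FPKM. Its tau-/- sham level was already near the tau+/+ PTZ level, and it was one of the members highest in tau-/- sham relative to tau+/+ sham, at a log2 ratio of 0.64.

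Ifrd1, a transcriptional co-regulator, stood at 15.0, 27.9, 17.03 and 15.4 FPKM. Irf2bp2, a co-repressor, stood at 6.93, 13.2, 7.63 and 7.75. For both, the tau-/- libraries were within 1.5-fold of tau+/+ sham and the tau+/+ PTZ library was the one that stood apart. Hes1, the repressor downstream of Notch, stood at 5.15, 9.93, 5.04 and 6.47 FPKM, and Klf2, a factor induced by blood flow in endothelium, at 6.21, 11.9, 5.97 and 7.69. These were the genes of the class with the highest tau-/- log2 ratios, 0.36 each after rounding. Kdm6b, a demethylase of histone H3 lysine 27, had the lowest, -0.27, with 4.66, 7.75, 6.12 and 5.09 FPKM.

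The remaining 3 of the class covered a range of roles. Id1, an inhibitor of basic helix-loop-helix factors and a target of BMP signalling, stood at 9.76, 17.4, 8.002 and 9.12 FPKM. Sirt7, a nuclear sirtuin, stood at 5.57, 9.15, 7.46 and 6.99, and Med7, a subunit of Mediator, at 5.81, 9.26, 7.04 and 6.27. Id1 was lower in tau-/- than in tau+/+ sham, and the other two were higher.

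Among the 11 genes of signalling and its feedback, 9 were higher in tau-/- than in tau+/+ sham, with a median log2 ratio of 0.47. This was so for 135 of all 230 listed genes, with a median of 0.11. In tau-/- brain 8 of the 11 were lower after PTZ than before it, with a median log2 ratio of -0.25. Of all 230 listed genes 135 were lower there, with a median of -0.10. Rcan1 stood at 14.5 FPKM in tau+/+ sham, 21.9 in tau+/+ PTZ, 20.6 in tau-/- sham and 15.5 in tau-/- PTZ. The levels of the tau-/- pair mirrored those of the tau+/+ pair, with PTZ the lower one. Net1, an exchange factor for RhoA, gave the same picture at 7.83, 12.6, 10.9 and 8.19 FPKM. Rasl11b, a small GTPase of the Ras family, stood at 19.6, 31.9, 29.2 and 25.4.

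2 genes of the class were lower by over 1.5-fold in tau-/- PTZ than in tau-/- sham. Plk5 is given above. Cish, an inhibitor of cytokine signalling that STAT5 induces, stood at 1.34, 2.54, 2.04 and 1.35 FPKM. Against tau+/+ sham, neither was lower in tau-/- PTZ, with log2 ratios of 0.38 for Plk5 and 0.00097 for Cish, since both started higher in tau-/- sham. P2ry6, a receptor for UDP that microglia carry, stood at 1.25, 2.21, 2.09 and 2.004 FPKM. Its levels in both tau-/- libraries were near the tau+/+ PTZ level.

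Spry2 went the other way. It encodes Sprouty 2, a feedback inhibitor of receptor tyrosine kinase and ERK signalling, and it had the highest level of the class in tau+/+ PTZ. It stood at 21.6 FPKM in tau+/+ sham, 36.0 in tau+/+ PTZ, 13.0 in tau-/- sham and 17.8 in tau-/- PTZ. It was higher with PTZ in both genotypes, by log2 ratios of 0.74 and 0.45, and lower in tau-/- than in tau+/+ brain in both conditions, by ratios of -0.73 and -1.02. Nedd9, a docking protein of focal adhesions, stood at 3.35, 5.26, 3.60 and 4.55 FPKM and had a tau-/- log2 ratio of 0.34.

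The last 3 of the class had tau-/- log2 ratios between -0.27 and 0.04. Gpr19, an orphan G protein-coupled receptor, stood at 7.18, 11.9, 7.13 and 7.32 FPKM, and only the tau+/+ PTZ level differed from the rest by over 1.5-fold. Ppp1r14a, an inhibitor of myosin phosphatase, stood at 13.7, 21.8, 17.7 and 14.9. Shkbp1, which binds an adaptor of receptor endocytosis, stood at 1.71, 2.73, 2.21 and 1.83.

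The 3 survival genes had tau-/- log2 ratios between -0.18 and 0.04. Mcl1, a guard of mitochondria of the Bcl-2 family, stood at 16.9 FPKM in tau+/+ sham, 26.8 in tau+/+ PTZ, 17.8 in tau-/- sham and 18.2 in tau-/- PTZ. Hax1, another mitochondrial survival protein, stood at 7.13, 11.5, 7.03 and 6.20. Pim3, a serine/threonine kinase, stood at 6.34, 10.2, 8.17 and 8.27, so its tau-/- levels lay between those of the tau+/+ libraries.

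The genes of protein modification and turnover were alike. Midn, or midnolin, which carries nuclear proteins to the proteasome, stood at 14.7, 26.4, 16.0 and 15.3 FPKM. Rnft1, a ring finger protein of the endoplasmic reticulum, stood at 2.13, 3.41, 2.05 and 2.17. Naa16, an N-terminal acetyltransferase subunit, stood at 0.927, 1.67, 0.788 and 0.926. In each of the 3, tau+/+ PTZ was over 1.5-fold above all other libraries, and the other three levels were close to each other. Mid1, a ubiquitin ligase on microtubules, stood at 4.04, 6.62, 3.09 and 2.76 and was lower in both tau-/- libraries.

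Among the 11 enzymes, 8 lay within 1.5-fold in tau-/- brain and 3 (27.3%) were lower, against 16.5% of all listed genes. Their median log2 ratio was -0.32. Fdxr, which passes electrons to mitochondrial cytochromes P450, was the member with the smallest genotype difference after PTZ. It stood at 2.91, 4.46, 3.10 and 4.22 FPKM, with log2 ratios of PTZ to sham of 0.62 and 0.45 and a genotype ratio after PTZ of -0.08.

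Sgms2, which makes sphingomyelin at the plasma membrane, was one of the 3 that were lower, at 0.761, 1.44, 0.949 and 0.445 FPKM and a tau-/- log2 ratio of -1.09. The other two, Rdh5 and Aldh1a2, are on cell type lists and are given below. Alpl, the tissue-nonspecific alkaline phosphatase, stood at 3.90, 6.08, 3.60 and 2.74. Galnt6, which starts mucin-type glycosylation, stood at 1.55, 2.40, 2.07 and 1.48. For both, tau-/- PTZ was the lowest of the 4 levels. Hemk1, a methyltransferase that modifies translation release factors, and Piga, which starts GPI anchor synthesis, had tau-/- log2 ratios of -0.32 and -0.05. Lactb2, a mitochondrial nuclease, and Xylb, a sugar kinase, had 0.01 and 0.09.

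Of the 13 genes of the cytoskeleton, membrane and transport, 5 (38.5%) were lower by over 1.5-fold in tau-/- brain with PTZ and 1, Rai14, was higher. Of all listed genes 16.5% were lower and 8.7% higher by that much. Rai14, an actin-binding protein, stood at 1.15 FPKM in tau+/+ sham, 1.99 in tau+/+ PTZ, 0.898 in tau-/- sham and 1.39 in tau-/- PTZ, with a tau-/- log2 ratio of 0.63. With 0.1 FPKM added to each level it was no longer past 1.5-fold. Fabp7, a fatty acid-binding protein of radial glia and astrocytes, was the most abundant gene of the class, at 27.2, 41.9, 24.1 and 27.5 FPKM. Emd, which encodes emerin of the nuclear envelope, stood at 21.3, 35.5, 24.1 and 29.0.

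Rcsd1, a regulator of actin capping found in immune cells, was among the 5 that were lower. It stood at 1.19, 2.18, 1.62 and 1.053 FPKM, with a tau-/- log2 ratio of -0.63. The other four, Aqp1, Cldn1, Trpv4 and Abca4, are choroid plexus genes. Csrp2, a LIM domain protein, stood at 8.64, 13.3, 7.08 and 7.14 FPKM, and Slc16a6, a transporter of the monocarboxylate family, at 1.90, 3.46, 1.76 and 1.77, with tau-/- log2 ratios of 0.01 each after rounding. Eps8l2, which regulates actin, had a tau-/- log2 ratio of -0.49, and Ston1, an endocytic adaptor, had -0.37.

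Among members with a tau-/- ratio, the lowest were those of the choroid plexus genes Wfikkn2, Abca4, Aqp1 and 1500015O10Rik. Defb11, on no cell type list, is listed at 0 in tau-/- PTZ and ranked below them. Sema3b, also on none, had -1.92, lower than Cldn1 and Rdh5. Of 21 genes on the choroid plexus list 14 are in the table and 8 are members: Aqp1, Cldn1, Trpv4, Abca4, Rdh5, Sostdc1, Wfikkn2 and 1500015O10Rik. All 8 were higher with PTZ in tau+/+ brain, with log2 ratios from 0.70 to 0.99, and all 8 were lower with PTZ in tau-/- brain by over 1.5-fold, with log2 ratios from -1.68 to -3.67 and a median of -2.67. The 1500015O10Rik gene, which encodes the secreted peptide precursor augurin, stood at 20.9 FPKM in tau+/+ sham, 40.4 in tau+/+ PTZ, 14.6 in tau-/- sham and 1.39 in tau-/- PTZ. Aqp1, the water channel of the epithelium, stood at 3.09, 5.03, 1.87 and 0.164 FPKM. In a bulk library, fewer cells of a type and less RNA per cell cannot be told apart.

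Sostdc1, a secreted antagonist of BMP and Wnt signalling, stood at 9.18, 15.6, 5.73 and 1.503 FPKM, and Cldn1, a protein of tight junctions, at 2.32, 4.30, 1.69 and 0.453. Rdh5, a retinol dehydrogenase, stood at 3.84, 6.24, 3.47 and 1.08. Every one of these had the order tau+/+ PTZ, tau+/+ sham, tau-/- sham, tau-/- PTZ from high to low. Trpv4, a cation channel that senses osmolarity, stood at 1.73, 3.01, 1.995 and 0.518 FPKM, and Abca4, a lipid transporter best known from photoreceptors, at 1.202, 1.95, 1.36 and 0.109. Wfikkn2, a secreted inhibitor of growth and differentiation factors, stood at 0.743, 1.48, 1.22 and 0.0959. In these last 3, tau-/- sham was above tau+/+ sham, and in all 8 tau-/- PTZ was the lowest library.

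The other 6 genes of the list in the table, Ttr, Folr1, Kcnj13, Slc4a5, F5 and Lbp, are not members and were also lower with PTZ in tau-/- brain, with log2 ratios from -1.49 to -5.73. Summed over the 14 genes the level was 1586 FPKM in tau+/+ sham, 2636 in tau+/+ PTZ, 1167 in tau-/- sham and 41.4 in tau-/- PTZ, most of it Ttr. Without Ttr the sums were 82.0, 144, 59.7 and 8.31, and over the 8 members alone 43.0, 78.0, 31.9 and 5.31. All 14 genes were higher with PTZ in tau+/+ brain and lower with PTZ in tau-/- brain, and no gene of the list in the table was at 0 in any library. Both ratios entered the choice of genes for the table, and the list was drawn up with earlier results known. The shared direction is therefore a description only. The part of tissue composition in these values was not tested.

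The genes of the meninges and perivascular fibroblasts were mixed. All 5 of the listed genes in the table, of 13 on the list, are members, and 2 were lower by over 1.5-fold in tau-/- brain with PTZ. Pcolce, which helps process procollagen, stood at 6.72 FPKM in tau+/+ sham, 10.8 in tau+/+ PTZ, 7.78 in tau-/- sham and 2.94 in tau-/- PTZ. Aldh1a2, which makes retinoic acid, stood at 2.93, 4.52, 1.74 and 1.09. Lum, a matrix proteoglycan, and Mxra8, a matrix-remodelling adhesion protein, stood within 1.5-fold, at tau-/- log2 ratios of -0.37 and -0.36. Mfap2, a component of microfibrils, had 0.38, with 2.59, 4.38, 2.63 and 3.43 FPKM. The median over the 5 was -0.37.

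**Figure D4:**
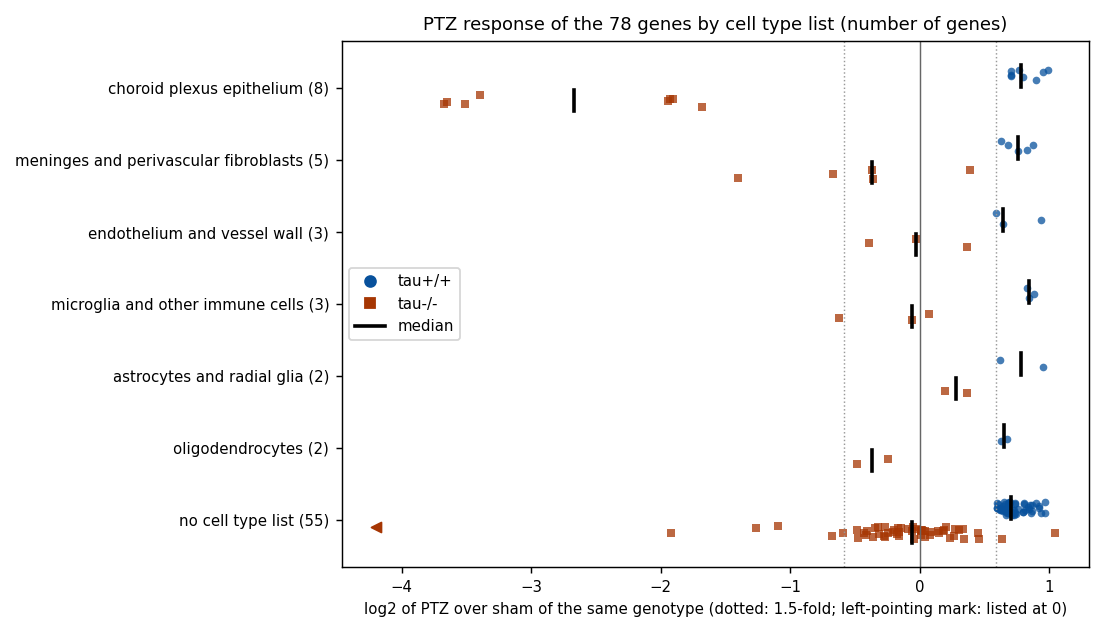
Log2 ratio of PTZ to sham on the horizontal axis for the 78 genes by cell type list, with circles for tau+/+, squares for tau-/-, bars for medians and dotted lines at 1.5-fold (1 library each; Defb11, at 0 in tau-/- PTZ, is the left-pointing mark). The tau+/+ points lie between 0.59 and 0.99, and the tau-/- points of the 8 choroid plexus genes lie from -1.68 to -3.67, left of nearly all others.

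The other cell type lists held few members, and of these Rcsd1 was lower by over 1.5-fold in tau-/- brain. Klf2, Alpl and Col4a2, on the list of endothelium and vessel wall, had tau-/- log2 ratios of 0.36, -0.39 and -0.03. Col4a2, a basement membrane collagen, stood at 5.42, 8.14, 6.11 and 5.97 FPKM. P2ry6, Gimap6 and Rcsd1, on the immune list, had -0.06, 0.07 and -0.63. Fabp7 and Hes1, on the astrocyte list, had 0.19 and 0.36, and Ppp1r14a and Galnt6, on the oligodendrocyte list, had -0.25 and -0.49. None of the 6 red blood cell genes is in the table. 55 members are on no cell type list, and for the 65 on neither the choroid plexus nor the meninges list the median tau-/- log2 ratio was -0.06, with 2 (3.08%) higher and 7 (10.8%) lower by over 1.5-fold. Of all 211 listed genes on neither list, 9.48% were higher and 10.4% lower by that much, with a median of -0.06, so the share of lower members was near the background.

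Among the 7 that were lower outside these lists, secreted proteins stood out by size. Defb11, a beta-defensin, stood at 11.7 FPKM in tau+/+ sham, 20.4 in tau+/+ PTZ and 5.86 in tau-/- sham and is listed at 0 in tau-/- PTZ, so no fold is given. It was the only member at 0 in any library, and its gene is short, at 1.04 kb. Sema3b, a secreted guidance cue, stood at 1.51, 2.63, 1.54 and 0.407 FPKM, with a tau-/- log2 ratio of -1.92. A2m, a plasma protease inhibitor, stood at 1.85, 2.84, 1.63 and 0.676, with -1.27. Of the 11 secreted and matrix genes 7 (63.6%) were lower by over 1.5-fold, against 21.8% of the 78 members and 16.5% of all listed genes. Their median log2 ratio was -1.41, the lowest of any function class, in classes drawn up with earlier results known. 3 of the 7, 1500015O10Rik, Sostdc1 and Wfikkn2, are on the choroid plexus list and 1, Pcolce, is on the meninges list.

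**Figure D5:**
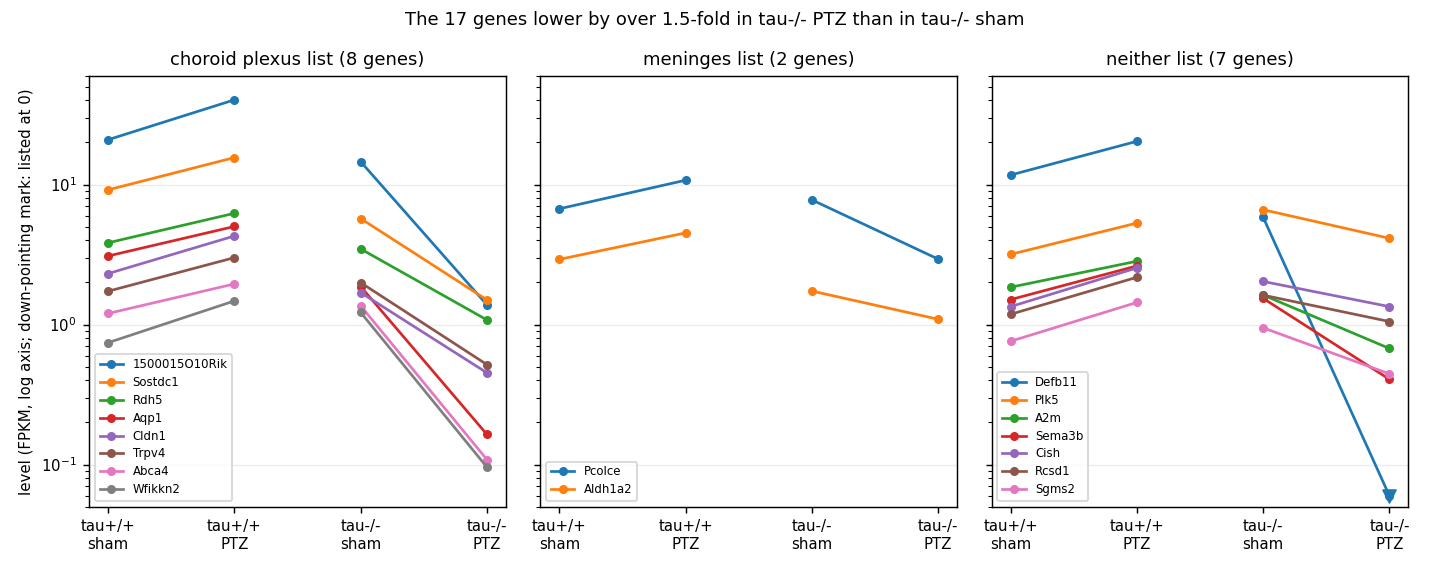
Level in FPKM on a log axis, in the 4 libraries, of the 17 genes that were lower by over 1.5-fold in tau-/- PTZ than in tau-/- sham, with the 8 choroid plexus genes at the left, the 2 meninges genes in the middle and the other 7 at the right (1 library each). Every line rises between the tau+/+ libraries and falls between the tau-/- libraries, and 15 of the 17 genes have their lowest level in tau-/- PTZ, the exceptions being Plk5 and Cish.

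6 members were placed in no function class, and all 6 lay within 1.5-fold in tau-/- brain, as did 59 of the 78 members and 172 of all 230 listed genes. The noncoding 5430416N02Rik stood at 4.86 FPKM in tau+/+ sham, 9.50 in tau+/+ PTZ, 6.54 in tau-/- sham and 7.23 in tau-/- PTZ. Both tau-/- levels lay between the tau+/+ levels. Fam107b stood at 4.75, 7.71, 5.83 and 4.32, with the lowest tau-/- log2 ratio of the 6, -0.43. 1700009P17Rik, a ciliary protein gene, had the highest, 0.30, at 2.37, 4.15, 2.19 and 2.70. These were the extremes of the class, and neither moved past 1.5-fold in tau-/- brain. Gimap6, a GTPase of lymphocytes, stood at 1.89, 3.38, 2.37 and 2.49. BC067068 was higher in tau-/- than in tau+/+ sham, at 0.955 FPKM in tau+/+ sham, 1.74 in tau+/+ PTZ, 1.54 in tau-/- sham and 1.27 in tau-/- PTZ. 9030025P20Rik stood at 1.43, 2.50, 1.54 and 1.33, with only tau+/+ PTZ apart from the rest.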

How the data were processed

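Brain RNA of 4 groups of mice, 1 library each, was sequenced as paired ends. Per the submitters' processing notes and the study's methods, the authors used CASAVA 1.7, aligned reads to GRCm38/mm10 with TopHat2 2.03 and Bowtie2 2.0.0.6, allowing 2 mismatches, and computed the deposited FPKM values with Cuffdiff 2.01. The annotation is not given in the sources used here. The deposited table also holds the authors' log2 fold changes and p-values, which were not used.

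Log2 ratios were computed from FPKM without a pseudocount. A gene counted as past the threshold at 1.5-fold, the study's own. Defb11, listed at 0 in tau-/- PTZ, was ranked as the lowest in counts and medians and given no ratio. The members, cell type and function lists, and alternatives were chosen with earlier results of these data known. All 4 levels are given in each list for the most abundant members, the ends of the tau-/- ratio and every member past 1.5-fold in tau-/- brain, and further members are given where space allowed. Positions came from GENCODE M21 and promoters from RefSeq (GRCm38.p6). Functions were tested on simulated data. Python 3.11.15, numpy 2.4.6, pandas 2.3.3 and matplotlib 3.10.9 were used. The study's methods give a minimum of aligned read pairs per sample, but the depth of each library could not be read from FPKM. The error of low values was not estimated. The values of 1 member are not reported here, and it stays in the counts and medians.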

Additional observations from a re-analysis of the deposited data

Results flagged for a closer look

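17 of the 78 genes (21.8%) were past 1.5-fold in opposite directions, higher with PTZ in tau+/+ brain and lower with PTZ in tau-/- brain. So were 8 of the 85 genes higher by at least 2-fold and 6 of the 12 such genes taken out by name. Of all 230 listed genes, whatever their direction in tau+/+ brain, 16.5% were lower by that much in tau-/- brain. With 1 library a group the opposite directions were not tested. On the choroid plexus list the tau-/- log2 ratios of PTZ to sham were -3.67 for Wfikkn2, -3.65 for Abca4, -3.51 for Aqp1, -3.40 for 1500015O10Rik, -1.94 for Trpv4, -1.93 for Sostdc1, -1.90 for Cldn1 and -1.68 for Rdh5. With 1 FPKM added to each level they were, in the same order, -1.02, -1.09, -1.30, -2.71, -0.98, -1.43, -0.89 and -1.10. The size and order of these ratios thus change with the level added. In tau-/- PTZ, Wfikkn2, Abca4, Aqp1, Trpv4 and Cldn1 were under 1 FPKM, whereas 1500015O10Rik, Sostdc1 and Rdh5 stood at 1.39, 1.503 and 1.08. On the meninges list the tau-/- log2 ratios with no level added were -1.41 for Pcolce and -0.67 for Aldh1a2. On neither list they were -1.92 for Sema3b, -1.27 for A2m, -1.09 for Sgms2, -0.68 for Plk5, -0.63 for Rcsd1 and -0.60 for Cish. Defb11 was listed at 0 in tau-/- PTZ and has no ratio.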

How the results depend on the processing

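Of 40 recomputed medians and counts, 25 stayed close to the reported value and 15 moved. A median counted as close within 0.1 on the log2 scale, and a count within 1.5-fold of the reported one. The tau+/+ median log2 ratio was 0.60 with a pseudocount of 1 FPKM, and that of tau-/- PTZ to tau+/+ PTZ was -0.57. The tau-/- median was -0.056 with a mean of at least 5 FPKM, -0.062 with the choroid plexus and meninges genes left out, -0.059 when centred on all listed genes and 0.040 with tau+/+ sham as baseline. The count of genes higher in tau-/- brain was 1 with either pseudocount (0.1 or 1 FPKM), with a mean of at least 5 FPKM, with tau+/+ sham as baseline and at 2-fold, and 12 at 1.2-fold. The count of lower genes was 4 with a mean of at least 5 FPKM, 7 with the choroid plexus and meninges genes left out and 33 at 1.2-fold. Among the counts taken as close, it was 15 with a pseudocount of 0.1 FPKM and 12 with 1 FPKM. It was also 13 when centred on all listed genes and 13 at 2-fold. With 1 FPKM added, Sgms2, Plk5, Aldh1a2, Rcsd1 and Cish were no longer past 1.5-fold. With tau+/+ sham as baseline, Plk5 turned to 0.38 and Cish to 0.00097, and 13 of 77 single genes stayed within 0.1 on the log2 scale. The causes were not tested. No paired analysis was possible because each group has 1 library, and no replicate could be left out. The depth of each library is known only as a minimum from the study's methods, and the error of levels under 1 FPKM was not estimated.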
